A study of Bos taurus with 4 samples.

Results

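The carriers that move glucose and the monocarboxylates lactate and pyruvate across cell membranes were examined in bovine blastocysts, in which an epithelium called the trophectoderm surrounds a cavity and the inner cell mass. The members were named by gene: SLC2A1, SLC2A2, SLC2A3, SLC2A4, SLC2A5 and SLC2A8 of the facilitative glucose transporters, and SLC16A1, SLC16A3 and SLC16A7 of the monocarboxylate transporters. All probes that the platform annotation gives these symbols were taken, which were 11 of 43794 probes and covered 8 of the 9 genes. No probe carries the symbol SLC2A5, so the fructose carrier was not analysed here. All 11 probes passed the brightness filter that kept 30986 probes for testing. Embryos were produced by in vitro fertilisation of slaughterhouse oocytes with semen of 4 bulls, each collected at 12 and at 16 months of age. On each of 4 two-colour arrays, RNA of 12-month embryos was hybridised together with RNA of 16-month embryos, with 12-month RNA in the red dye Cy5 on arrays 1 and 2 and in the green dye Cy3 on arrays 3 and 4. The labels call the arrays biological replicates. They do not say which bull an array belongs to or how many embryos went into an RNA. No other allele, strain or treatment is labelled, and age goes with the time of collection.

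Facilitative glucose transporters let glucose run down its gradient into the cell, where glycolysis turns it into pyruvate and lactate. Monocarboxylate transporters carry lactate and pyruvate together with a proton, inward or outward. Mammalian embryos rely on pyruvate and lactate during the first cleavages and take up more glucose around compaction and cavity formation, and the cultured embryo draws these fuels from its medium.

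Age ratios are 12 over 16 months on the log2 scale. A negative value means less signal in embryos of 12-month semen. They come from the median pixel of each spot unless another summary is named. Tests are from limma with an age and a dye coefficient over all tested probes, two-sided, with Benjamini-Hochberg adjustment. With an array left out, or array 4 turned against its label, ratios over arrays are this age coefficient, not a plain mean. It weighs both dye orientations equally, so a lone array of an orientation then counts as much as the others together. Before any single gene is read, the arrays themselves need a caution. Across tested probes, the age ratios correlated at 0.33 between arrays 1 and 2 but at -0.15 between arrays 3 and 4. Array 4 correlated at -0.24 with array 1, and at -0.45 when the mean in place of the median pixel was used. Left unturned, as Cy5 over Cy3, arrays 1 and 4 therefore correlated at 0.45 although their labels give opposite dye orientations. These are correlations across genes within few arrays, and whether dye, embryo batch or labelling is behind them was not tested. Trophectoderm markers were present as labelled, with 13 of 14 measured marker genes above background in all 8 channel signals. Of the cumulus and granulosa cell markers 4 of 10 were, 7 were bright enough to be tested, with a median age ratio of 0.14, and 1, HAS2, was above background in no signal.

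The transporter probes ranged from background level to far above it. Brightness is given as the background-subtracted signal divided by the negative-control level, the 95th percentile among negative controls for that array and dye. It depends on the probe as well as on the transcript, so it does not order the genes by abundance. SLC2A3, the high-affinity glucose transporter that lies on the apical face of mouse trophectoderm, stood 101 to 582 times above the negative-control level. SLC2A4, the insulin-responsive transporter of muscle and fat, stood 25.8 to 175 times above it. The brighter of 2 probes of SLC2A1, the widespread basal glucose transporter, stood at 25.4 to 86.4 times that level, and the dimmer at 1.32 to 2.37 times. The 3 probes of SLC16A1, which carries lactate and pyruvate in either direction, ranged from 41.1 to 149, from 4.34 to 16.0 and from 2.38 to 5.91 times the level. SLC2A8, a transporter with an insulin response in mouse blastocysts, stood at 1.77 to 4.80 times.

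**Figure D1:**
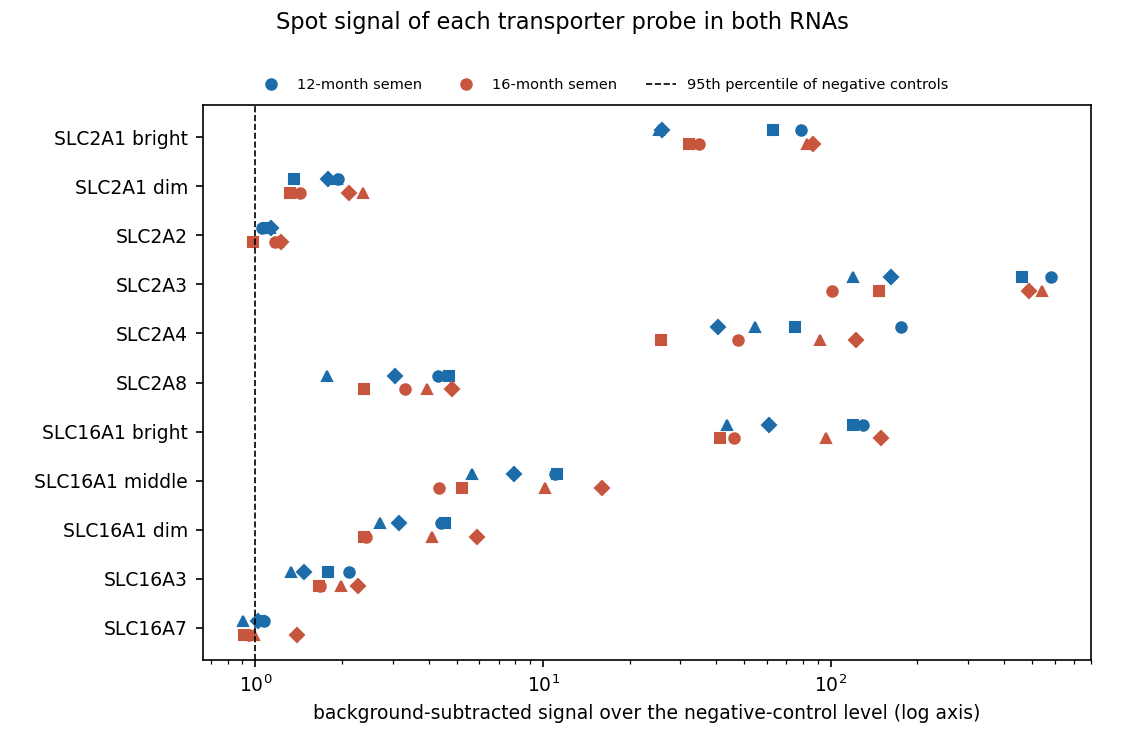
Background-subtracted signal of each transporter probe over the 95th percentile of negative controls (log axis), with 1 symbol per array (circle 1, square 2, triangle 3, diamond 4) and 1 colour per semen age. SLC2A3, SLC2A4 and the bright probes of SLC2A1 and SLC16A1 lie more than 25 times above the negative-control level, while SLC2A2 and SLC16A7 lie across it. This ratio also differs by dye, since each dye has its own negative-control level, so ages are not compared on it.

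The dimmest carriers were near the limit of detection. SLC16A3, the lactate exporter of strongly glycolytic cells, stood at 1.33 to 2.27 times the negative-control level and was above it in 8 of 8 channel signals. SLC2A2, the low-affinity transporter of liver and pancreatic beta cells, stood at 0.980 to 1.23 times and was above it in 7. SLC16A7, a high-affinity pyruvate carrier, stood at 0.904 to 1.39 times and was above it in 4 of 8, of which 3 were Cy5 and 1 Cy3 signals. The other 9 probes were above background in all 8 signals. An offset of 50 added during background correction pulls the ratios of such dim spots towards 0.

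SLC2A1 gave the age ratio farthest from 0 among these probes. At its brighter probe (EMBV3_00439) the normalised log2 level in 12-month embryos was 12.50, 12.58, 12.41 and 12.32 on arrays 1 to 4, and in 16-month embryos 12.91, 12.99, 12.92 and 12.67. Every 12-month level lay below every 16-month level, which holds for 0.507% of all probes measured on 4 arrays in that direction and 0.905% in either. This separation rests on the labelled dye orientation of array 4. The age ratios were -0.41, -0.42, -0.52 and -0.35, with a mean of -0.42 ± 0.070 (SD, n = 4). The 16-month signal was thus 1.34-fold the 12-month signal, and the 95% confidence interval of the log2 ratio ran from -0.62 to -0.22. Its unadjusted p in limma was 0.00209, which ranked 39th from the smallest of 30986 probes, and its adjusted p was 0.821, so it did not pass the test. With array 4 turned against its label, its ratio would be 0.35, the ages would overlap, and the fit would give -0.34 with an unadjusted p of 0.0605 and an adjusted p of 0.601 in limma. Fewer cells of a type and less RNA per cell cannot be told apart in such pooled embryo RNA.

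The SLC2A1 ratio depended on how the pixels of a spot were summarised, and array 4 was where it turned. With the mean of the pixels the 4 ratios were -0.24, -0.35, -0.39 and 0.44, and the mean became -0.14 ± 0.39 (SD, n = 4) with an interval from -0.56 to 0.29. That fit gave an unadjusted p of 0.424 and an adjusted p of 0.957 in limma. A trimmed mean of the pixels gave 0.43 on array 4 and -0.14 over the arrays. On array 4 the raw SLC2A1 spot read 5961 in Cy3 and 5734 in Cy5 by the median pixel, but 7392 and 4304 by the mean pixel. The Cy3 channel of that array held the 12-month RNA. The 2 summaries differed there by 0.79 on the log2 scale, and only 0.223% of tested probes differed by more on array 4. On arrays 1, 2 and 3 they differed by 0.17, 0.064 and 0.12. With array 4 left out, the ratio was -0.47 by the median pixel and -0.34 by the mean pixel, with adjusted p of 0.166 and 0.140 in limma. The authors' deposited table, which followed the median pixels, gives -0.41, -0.36, -0.62 and -0.38 once the sign is turned on arrays 3 and 4.

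**Figure D2:**
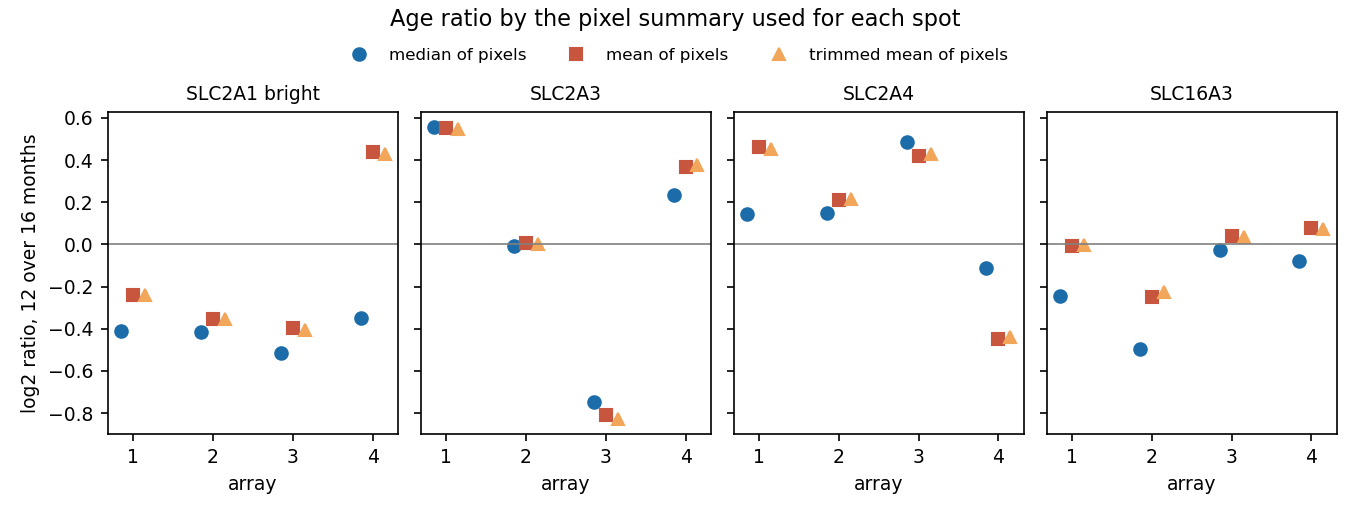
Age ratio (log2, 12 over 16 months) on each of 4 arrays for 4 probes, with the spot summarised by the median, mean or trimmed mean of its pixels. The bright SLC2A1 probe is below 0 on every array by the median but at 0.44 on array 4 by the mean, while SLC2A3 on array 4 is at 0.23 by the median and 0.37 by the mean.

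The dimmer SLC2A1 probe (EMBV3_07761) did not carry the same ratio. It stood at -0.014, -0.32, 0.15 and 0.26 on arrays 1 to 4, with a mean of 0.020 ± 0.25 (SD, n = 4) and an adjusted p of 0.974 in limma. The bright probe was lower than the dim one on 4 of 4 arrays, by a mean difference of -0.44 ± 0.26. An exact two-sided sign-flip permutation test of this difference gave the smallest p that 4 arrays allow, which is above 0.05, and p = 0.5 after adjustment over the 4 probe pairs compared. With mean pixels the difference was -0.056.

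**Figure D3:**
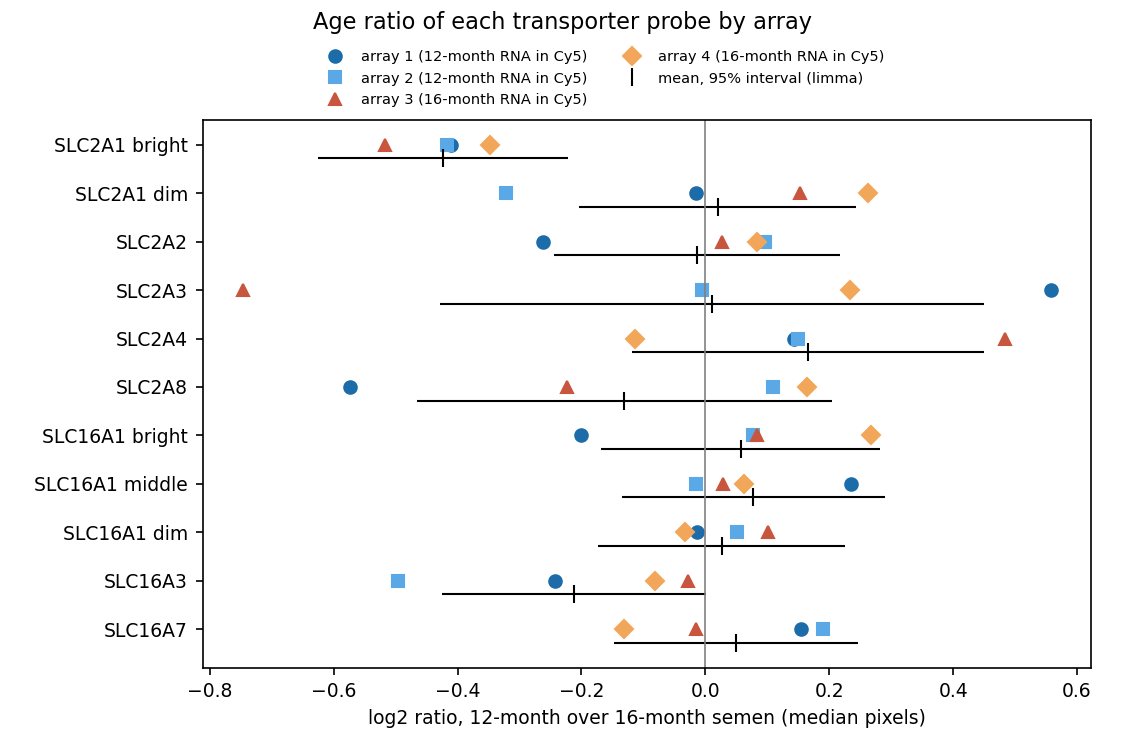
Age ratio (log2, 12 over 16 months, median pixels) of the 11 transporter probes on each array, with the mean (vertical tick) and 95% confidence interval from limma below the symbols. Only the bright SLC2A1 probe has an interval that leaves out 0, and the 4 arrays of SLC2A3 spread from -0.75 to 0.56.

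SLC2A3 varied most between arrays. Its ratios were 0.56, -0.0051, -0.75 and 0.23, which averaged 0.010 ± 0.55 (SD, n = 4), and its SD exceeded that of 96.7% of tested probes. In 12-month embryos its normalised log2 level was 15.37, 15.13, 14.76 and 15.18, and in 16-month embryos 14.81, 15.14, 15.51 and 14.95, so the ages overlapped. The interval from -0.43 to 0.45 covers differences of either sign, and adjusted p was 0.995 in limma. The sign of the fitted ratio rested on single arrays, with 0.26 without array 3, -0.24 without array 4 and -0.13 without array 1. The pixel mean gave 0.55, 0.0077, -0.81 and 0.37. The authors' deposited table gives 0.45, -0.18, -0.22 and 0.35 after turning, so its array 3 value lies nearer to 0. The median ratio of 14 trophectoderm marker genes was 0.15, 0.43, -0.23 and 0.15 on the same arrays, with TKDP1 missing on array 3. Array 3 was lowest for both, but the markers were highest on array 2 and SLC2A3 on array 1. On array 3 the markers ranged from -1.27 (KRT8) to 0.080 (PAG11). KRT8 was not low on array 3 alone, since it stood at 1.40, 0.96, -1.27 and -1.31 on arrays 1 to 4. Its sign went with the dye orientation. The part of trophectoderm content in the SLC2A3 values was not tested.

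SLC2A4 stood at 0.14, 0.15, 0.48 and -0.11, higher with 12-month semen on 3 of 4 arrays. The mean was 0.17 ± 0.24 (SD, n = 4), with an interval from -0.12 to 0.45 and an adjusted p of 0.830 in limma. Array 3 carried much of this value, and the fitted ratio was 0.016 without array 3 and 0.31 without array 4. With mean pixels the array 1 and array 4 values moved outward to 0.46 and -0.45, and the mean was 0.16.

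SLC2A8 stood at -0.57, 0.11, -0.22 and 0.16, with a mean of -0.13 ± 0.34 (SD, n = 4) and an adjusted p of 0.861 in limma. Without array 1 the fitted ratio was 0.040. With mean pixels SLC2A8 was below 0 on 4 of 4 arrays, at -0.39, -0.14, -0.056 and -0.11. Its unadjusted p was then 0.0387 and its adjusted p 0.957 in limma. In that fit 2.78% of all probes passed an unadjusted p of 0.05 on the lower side and 4.79% on either, and 4.46% were lower on all 4 arrays. SLC2A2 stood at -0.26, 0.096, 0.027 and 0.084, with a mean of -0.014 ± 0.17. Array 1 lay apart from the other 3, and without it the fitted ratio was 0.076. With its signals at 0.980 to 1.23 times the negative-control level, these ratios rest on little signal above background.

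The 3 probes of SLC16A1 had mean ratios from 0.026 to 0.078. The bright probe (EMBV3_04197) stood at -0.20, 0.077, 0.083 and 0.27, with a mean of 0.057 ± 0.19 (SD, n = 4). Its normalised log2 level was 13.13 to 13.62 in 12-month and 13.19 to 13.36 in 16-month embryos. The probe of middle brightness (EMBV3_09381) averaged 0.078 ± 0.11, and the dim probe (EMBV3_35526) averaged 0.026 ± 0.061. Their 95% intervals together ran from -0.17 to 0.29, and adjusted p ranged from 0.868 to 0.957 in limma. The mean differences between the 3 pairs of SLC16A1 probes lay between -0.021 and 0.051, with exact sign-flip p from 0.625 to 1. Signs differed between the probes on single arrays: on array 1 the bright probe was at -0.20 and the middle one at 0.24.

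SLC16A3 was the other transporter below 0 on 4 of 4 arrays. Its ratios were -0.24, -0.50, -0.028 and -0.081, and the mean was -0.21 ± 0.21 (SD, n = 4). The interval ran from -0.43 to 0.00088, with an unadjusted p of 0.0507 and an adjusted p of 0.821 in limma. Arrays 1 and 2 averaged -0.37, and arrays 3 and 4 averaged -0.055. With mean pixels the sign was below 0 on 2 arrays and above 0 on 2, and the mean was -0.033. SLC16A7 averaged 0.049 ± 0.15, positive on arrays 1 and 2 and negative on arrays 3 and 4.

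Across the transporters the signs were mixed. Of 11 probes 0 passed an adjusted p of 0.05 in limma, against 0 of 30986 probes or 0%. At an unadjusted p under 0.05 stood 1 of 11, the bright SLC2A1 probe, where 5.81% of all tested probes did, 2.79% lower and 3.01% higher. The same sign on all 4 arrays was seen for 2 of 11, both lower with 12-month semen, against 10.4% of all probes measured on every array for either sign and 5.56% for lower. Both counts rest on the label of array 4: turned, SLC2A1 and SLC16A3 would be at 0.35 and 0.081 there and neither would keep 1 sign. SLC2A4 would then be above 0 on every array, where 16.0% of all probes would keep 1 sign. It would stand at 0.31 with an unadjusted p of 0.0188 and an adjusted p of 0.353 in limma, where 9.14% of all probes would pass an unadjusted p of 0.05. By mean ratio 7 probes were above 0 and 4 below. Counting each gene by its brightest probe, 4 were above 0 and 4 below, with a median of -0.0019 beside 0.00043 for all 11963 genes. By array this median was -0.22, 0.087, -0.022 and 0.0014. Dye effects of the 11 probes (Cy5 over Cy3) ranged from -0.19 to 0.27, with adjusted p from 0.513 to 0.982 in limma.

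Genes around these carriers also gave no call. The lists were compiled with earlier results of these data known, and each gene is given by its brightest probe. Of 16 partners and regulators tested, 0 passed an adjusted p of 0.05, 1 passed an unadjusted p of 0.05 on the higher and 1 on the lower side. Over all genes these shares were 2.98% and 3.32%, together 6.29%. MYC, a transcription factor that activates glucose transporter and glycolysis genes, stood at 0.56 ± 0.42 (SD, n = 4). It was above 0 on 4 arrays, at 0.78, 1.05, 0.17 and 0.25, and farther from 0 where 12-month RNA was in Cy5. Its unadjusted p in limma was 0.00067 with the dye term and 0.0076 without it. The MYC probe was dim, at a mean log2 brightness of 8.20 beside 8.11 for SLC16A3. TBC1D4, which holds SLC2A4 vesicles inside the cell until insulin signals, stood at -0.26 ± 0.13 and was below 0 on 4 arrays, at -0.27, -0.15, -0.44 and -0.17. Both had an adjusted p of 0.821 in limma. Of the 16 genes 3 kept 1 sign on all 4 arrays, against 10.6% of all genes. With array 4 turned against its label, neither MYC nor TBC1D4 would keep 1 sign. With mean pixels MYC was 0.37 and TBC1D4 -0.23. BSG, the membrane partner that SLC16A1 and SLC16A3 need to reach the surface, was chosen after its values were seen and stood at -0.11 ± 0.33. The list median was 0.050, with 9 genes above 0 and 7 below.

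**Figure D4:**
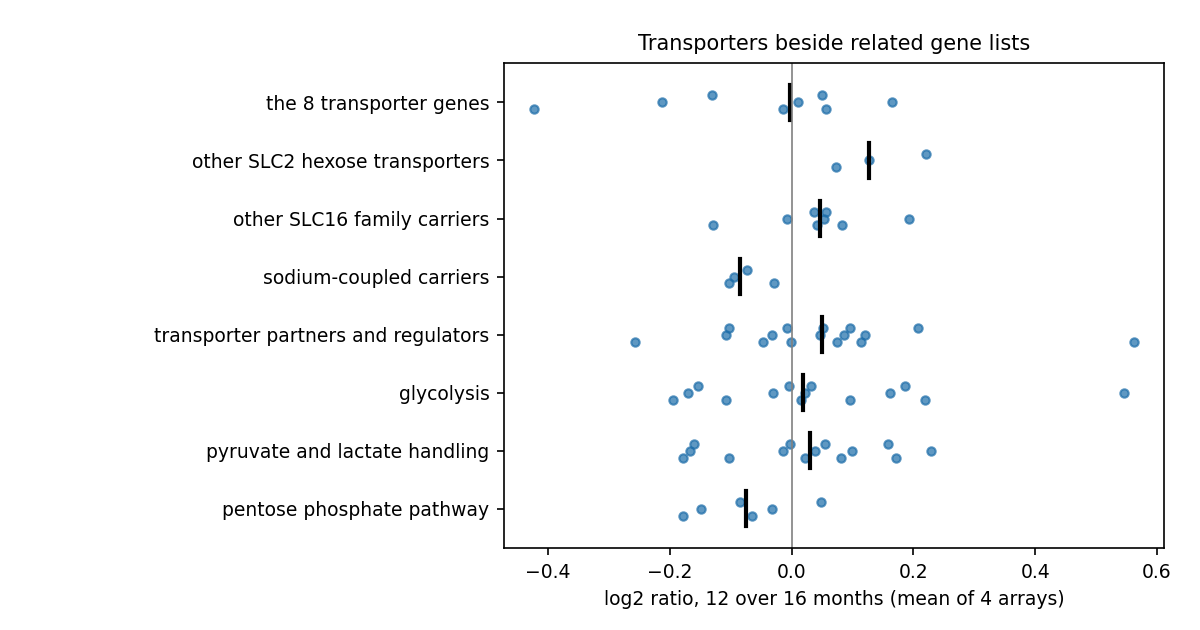
Mean age ratio (log2, 12 over 16 months, 4 arrays) of the 8 transporter genes and of 7 related gene lists, 1 point per gene at its brightest probe, with the list median as a bar. SLC2A1 is the lowest point of all rows at -0.42, and MYC at 0.56 and TPI1 at 0.55 are the highest.

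Other members of both families and of sodium-coupled uptake gave no call. All 3 tested genes of the remaining SLC2 family were above 0, with a median of 0.13, SLC2A10 at 0.22 ± 0.44 and SLC2A11 at 0.13 ± 0.24. Of 8 further SLC16 genes tested, 6 were above 0 and 2 below, with a median of 0.047. SLC16A8 stood at -0.13 ± 0.23 and SLC16A11 at 0.19 ± 0.42. Of 8 sodium-coupled carriers with a probe only 4 were tested. These 4 were all below 0, with a median of -0.084. SLC5A4 stood at -0.095 ± 0.20 and SLC5A12 at -0.10 ± 0.26 (SD, n = 4 for each gene). Over all 11963 genes 5993 were above 0 and 5970 below. In these 3 lists 0 genes passed an unadjusted p of 0.05 in limma, and 0 kept 1 sign on all 4 arrays, against 10.6% of all genes. SLC2A11, SLC16A8, SLC5A4 and SLC5A12 were about as dim as SLC16A7 and SLC2A2, so their ratios rest on little signal above background.

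The metabolic steps behind the carriers gave list medians near 0 as well. Of 14 glycolysis genes 8 were above 0 and 6 below, with a median of 0.019. TPI1, which interconverts the triose phosphates, stood at 0.55 ± 0.62, from -0.33 on array 3 to 1.05 on array 1, and PFKM, a subunit of phosphofructokinase, at 0.22 ± 0.38 (SD, n = 4). These were the 2 of 14 past an unadjusted p of 0.05, both higher, against 2.98% of all genes on that side, and 0 passed after adjustment in limma. PFKM was at 0.068 with mean pixels, and without the dye term its unadjusted p was 0.173. The fitted TPI1 ratio moved with single arrays. It stood at 0.85 without array 3, with an adjusted p of 0.0299 in a fit that called 24 probes in all, but at 0.43 without array 1 and at 0.24 without array 4, with adjusted p of 0.710 and 0.749. With array 4 turned the fit would give -0.047, with array 3 then the lone array of its dye orientation. Of 14 genes of pyruvate and lactate handling 8 were above 0, with a median of 0.031. The phosphatase subunit PDP1 stood at 0.17 ± 0.14 and DLAT of the pyruvate dehydrogenase complex at -0.16 ± 0.30. PDP1, at a mean log2 brightness of 7.44, was about as dim as SLC16A7 at 7.40. The PDP1 ratio thus rests on little signal above background. Of 6 pentose phosphate genes 5 were below 0, with a median of -0.074, TKT at -0.18 ± 0.14 and PGD at -0.15 ± 0.55. PGD stood at -0.33, -0.85, 0.32 and 0.27 on arrays 1 to 4, so its sign went with the dye orientation. Its unadjusted p in limma was 0.217 with the dye term and 0.460 without it. The fit gave -0.28 without array 1, where array 2 was the lone array of its dye orientation. Without array 2 it gave -0.021. A second, dimmer TKT probe stood at -0.058.

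Genes whose 4 array ratios lay closest to those of a transporter were sought among 11205 named genes by Euclidean distance over the 4 arrays. The bright SLC2A1 probe was nearest to RPS3A, a ribosomal protein, at a distance of 0.17, to PPP2R5D, a regulatory subunit of protein phosphatase, at 0.18 and to MOV10, an RNA helicase, at 0.20. These stood at -0.35, -0.36 and -0.46, and at -0.28, -0.22 and -0.23 with mean pixels. The nearest gene was THYN1 for SLC2A3 (0.19), RAB13 for SLC2A4 (0.082), AURKA for SLC2A8 (0.11), WDR7 for SLC2A2 (0.041), BMP3 for SLC16A1 (0.035), ETV3L for SLC16A3 (0.065) and TTC34 for SLC16A7 (0.034). With 4 arrays such neighbours are a description only.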

How the data were processed

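Per the file headers, the deposited scanner files give spot and background intensity in both colours as the median, mean and trimmed mean over pixels. Per the labels' protocols, RNA was amplified and then labelled chemically. The authors' deposited value table holds log2 ratios of Cy5 over Cy3, not turned where dyes were exchanged. Set against ratios of background-subtracted median pixels, its columns had r of 0.988 to 0.994 with their own array and at most 0.330 with another, and column medians of -0.016, -0.0019, -0.012 and -0.0063. No source used here gives its normalisation. The submitters' processing notes name limma.

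Median intensities were corrected with normexp (offset 50) and normalised by loess within arrays, control spots at weight 0. Spots marked as ignored (13, 10, 64 and 818 on arrays 1 to 4, none of a transporter) were left out, as were 14 summary lines per file. A probe was tested when its signal exceeded the 95th percentile of 153 negative controls in at least 4 of 8 channel signals. Levels are channel values after loess and Aquantile. limma 3.58.1 in R 4.3.3 was fitted with age and dye over 30986 probes. The fit was also run on simulated ratios with independent noise and changes of 1 and 2 on the log2 scale. That run does not cover arrays that correlate or smaller differences. The median half-width of the 95% interval was 0.23 on the log2 scale, limited by the number of arrays, and p-values measure only the spread between these arrays. The deposited files are named for 1 slide, so slide could not be a block. Symbols came from the platform annotation (21790 probes with 1 symbol, 0 with several, 22004 with none), of which 1524 were updated through RefSeq synonyms for the lists.

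The members and lists were chosen with earlier results of these data known. Named genes were every member probe, the 2 genes with the smallest p of each list, and the nearest genes by distance. Alternatives changed the background, offset, normalisation, pixel summary, starting values, dye term and filter, or left out an array. Trimmed means, mean pixels without array 4, and array 4 turned against its label were added after seeing the data.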

Additional observations from a re-analysis of the deposited data

How the results depend on the processing

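No probe of a transporter passed an adjusted p of 0.05 in limma in any setting, and the bright SLC2A1 probe stayed below 0 in all of them, at -0.47 to -0.38 when single arrays were left out. Over all probes 0 passed, except 24 without array 3 and 27 without array 4, a range of 0 to 27. At an unadjusted p under 0.05 stood 1799 probes, against 1048 without a dye term, 961 with signal required in all 8 channels (SLC2A2 and SLC16A7 then gave no value), 2839 with no filter and 2919 without array 4. Leaving out arrays gave -0.057 to 0.097 for the dim SLC2A1 probe, -0.10 to 0.076 for SLC2A2, -0.24 to 0.26 for SLC2A3, -0.30 to 0.040 for SLC2A8, -0.012 to 0.13 and -0.0071 to 0.060 for the bright and dim SLC16A1 probes, -0.25 to 0.041 for SLC5A12, -0.27 to 0.051 for BSG, -0.019 to 0.46 for SLC2A10 and -0.039 to 0.43 for SLC16A11. It gave 1 to 2 transporter probes at an unadjusted p under 0.05, 2 to 4 of one sign and 0 to 1 glycolysis genes past the adjusted p. A fit without 1 array has a lone array of that dye orientation, assumed to vary like the others. That lone array counts as much as the others together. Median centring in place of loess shifted the median of all genes to -0.21 and put 9101 probes, 7 of them transporters, at an unadjusted p under 0.05. It gave -0.41, -0.34 and -0.29 for SLC16A1 from bright to dim, -0.87 and -0.20 for SLC2A1, -0.29 for SLC2A4, -0.46 for SLC2A3, -0.016 for PFKM, -0.21 for SLC2A10 and -0.14 for SLC16A11. Relative to all genes, the bright SLC2A1 probe was then at -0.66, against -0.42 with loess. Other bright probes fell as well, the bright SLC16A1 probe from 0.056 to -0.20 and SLC2A3 from 0.0096 to -0.25. The dim SLC2A2 and SLC16A7 probes rose, from -0.014 to 0.17 and from 0.049 to 0.28. The median of the transporter genes became -0.38, and list medians became -0.21 (other SLC2), -0.11 (other SLC16), -0.20 (sodium-coupled), -0.32 (partners), -0.39 (glycolysis), -0.41 (pyruvate and lactate) and -0.49 (pentose phosphate). Mean pixels gave -0.080 for the dim SLC2A1 probe, -0.00053 for the dim SLC16A1 probe, -0.0053 for PDP1, a sodium-coupled median of -0.023, a difference of -0.056 between the SLC2A1 probes and 1 transporter probe of one sign. Trimmed means, added after seeing the data, gave -0.00052 for the dim SLC16A1 probe, -0.0021 for PDP1, a sodium-coupled median of -0.019, a probe difference of -0.15 and 1 of one sign. Mean pixels without array 4, also added later, gave -0.038 for the bright SLC16A1 probe, -0.029 for the dim SLC2A1 probe, -0.26 for SLC2A3, -0.020 for SLC2A11 and -0.0069 for PDP1, with 2 transporter probes among 4319 at an unadjusted p under 0.05. Turning array 4 against its label, also added later, gave -0.023 for both the bright SLC16A1 and the dim SLC2A1 probe, -0.32 for SLC2A3, -0.047 for TPI1, -0.18 for SLC16A11, medians of -0.035 (sodium-coupled) and -0.13 (glycolysis), a difference of -0.14 between the SLC2A1 probes, 1 transporter probe of one sign and 2828 probes at an unadjusted p under 0.05. With no background correction SLC2A3 was -0.018, in the deposited table SLC2A2 was 0.0023, and with no filter 2 transporter probes stood at an unadjusted p under 0.05. The causes were not tested. Signal over background limits SLC2A2, SLC16A7, SLC16A3 and the dim SLC2A1 probe most.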

Other observations

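Some related genes outside the 8 transporter genes examined differed more between arrays than any of those 8. SLC16A10, an aromatic amino acid carrier of the SLC16 family, stood at 0.93, 0.0087, -0.16 and -0.61 on arrays 1 to 4 (SD 0.65), and the glycolytic enzyme ALDOC at 0.95, 0.48, -0.052 and -0.63 (SD 0.68). Both were highest on array 1 and lowest on array 4. Both were above 0 on arrays 1 and 2, with 12-month RNA in Cy5, and below 0 on arrays 3 and 4, with it in Cy3. Left unturned, Cy5 thus exceeded Cy3 on every array. The part of dye in this spread was not tested. They were chosen after their values were seen, and no call is made on them.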
